A study of Mus musculus with 2 samples.

Results

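A set of 50 genes of DNA replication and mitosis was followed across the cell types of cultured mouse bone marrow. It holds 22 replication genes and 28 mitosis genes, named as a list and matched by symbol, and all of them were among the 47729 genes of the files. They were counted by single-cell RNA sequencing, which tags each captured transcript with a unique molecular identifier (UMI), in 2 libraries of 1 group each. In the coculture group, femur bone marrow of C57BL/6NCrljOri, H-2b mice was grown in DMEM for 5 days with 40 ng/mL GM-CSF beside human mesenchymal stromal cells (MSC), which sat in inserts with 0.4 µm pores after 24 h of preincubation, at 1 MSC to 5 bone marrow cells. In the group without coculture, the same kind of marrow was grown in RPMI1640 for the same time with the same dose of GM-CSF and no MSC. Live cells were sorted as CD11bmidLy6Cmid from the coculture and as CD11bhiLy6Chi from the culture without MSC. The sort gate, the MSC, the medium and the library therefore differ together and cannot be told apart. With 1 library per group no difference between them has a replicate check, so every interval given here is a 95% interval that covers counting error only.

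A dividing cell copies its DNA in S phase and parts the copies in mitosis. In late G1 the MCM helicase is loaded at origins and then opens the DNA for polymerases that need deoxynucleotides and the PCNA clamp, and E2F transcription factors drive many of these genes. Later, in G2 and M phase, cyclin B with CDK1, Aurora and Polo kinases, kinetochore proteins and kinesins condense, attach and separate the chromosomes. Their genes are commonly controlled through paired CCAAT and CHR promoter elements bound by NF-Y and the DREAM and MYB-MuvB complexes. In bone marrow, progenitors divide, while mature neutrophils and mature dendritic cells do not.

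The promoters differ along that line, and 5 are shown because they carry the contrast between the replication and the mitosis genes. RefSeq promoter windows (GRCm38.p6, from 250 bases before to 50 bases after the start of the gene) were matched for 43 of the 50 genes, with no entry used for Tipin, Exo1, Tpx2, Smc4, Mcm4, Gins2 and Aurkb. A gene with more than 1 window was counted once, as matched if any window matched. An E2F match (TTTCCCGC, TTTGGCGC, TTTCGCGC or TTTGCCGC, on either strand, overlaps allowed) lay in 8 of 18 replication promoters (Mcm3, Mcm5, Mcm6, Mcm7, Cdc6, Uhrf1, Dtl and Hells) and in 1 of 25 mitosis promoters (Cdk1), against 2.60% of all 27025 genes with windows. A CHR match (TTTGAA or TTCGAA, on either strand) lay in 18 of 25 mitosis promoters and 4 of 18 replication promoters, against 21.7% of all these genes. A CCAAT match was as frequent in mitosis promoters (72.0%) as in replication promoters (72.2%), above the 41.1% of all these genes. A window with both a CCAAT and a CHR match was found for 15 of 25 mitosis and 3 of 18 replication genes, against 8.61% of all these genes. These are letter matches and not measured binding sites. The windows below are written 5′ to 3′ on the strand of the gene. Capitals mark the E2F matches in Mcm3 (chr1:20820263-20820562, minus strand) and Mcm6 (chr1:128359656-128359955, minus strand), both subunits of the MCM helicase. In Ccnb2, which encodes cyclin B2 (chr9:70421505-70421804, minus strand), Top2a, which encodes topoisomerase II alpha (chr11:99024140-99024439, minus strand), and Cenpa, which encodes the centromeric histone (chr5:30666636-30666935, plus strand), capitals mark the CCAAT and CHR matches, read on either strand.
Mcm3: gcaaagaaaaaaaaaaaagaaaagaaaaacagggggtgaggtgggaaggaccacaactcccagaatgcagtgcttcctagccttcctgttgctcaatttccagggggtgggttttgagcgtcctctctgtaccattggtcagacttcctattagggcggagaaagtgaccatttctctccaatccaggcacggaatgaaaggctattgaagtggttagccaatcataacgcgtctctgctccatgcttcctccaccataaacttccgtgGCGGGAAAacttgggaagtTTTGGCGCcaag
Mcm6: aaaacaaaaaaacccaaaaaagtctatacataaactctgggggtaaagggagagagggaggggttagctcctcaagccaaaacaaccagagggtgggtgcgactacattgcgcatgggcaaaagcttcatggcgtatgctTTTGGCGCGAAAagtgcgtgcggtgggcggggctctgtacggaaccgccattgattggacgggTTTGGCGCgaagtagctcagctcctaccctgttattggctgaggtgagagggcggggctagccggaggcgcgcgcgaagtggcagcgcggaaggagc
Ccnb2: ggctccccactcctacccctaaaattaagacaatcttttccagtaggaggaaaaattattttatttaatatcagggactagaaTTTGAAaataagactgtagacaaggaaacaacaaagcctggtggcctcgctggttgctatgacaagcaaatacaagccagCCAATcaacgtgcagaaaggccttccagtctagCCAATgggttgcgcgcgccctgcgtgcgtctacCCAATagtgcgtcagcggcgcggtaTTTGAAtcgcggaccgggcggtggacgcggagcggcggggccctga
Top2a: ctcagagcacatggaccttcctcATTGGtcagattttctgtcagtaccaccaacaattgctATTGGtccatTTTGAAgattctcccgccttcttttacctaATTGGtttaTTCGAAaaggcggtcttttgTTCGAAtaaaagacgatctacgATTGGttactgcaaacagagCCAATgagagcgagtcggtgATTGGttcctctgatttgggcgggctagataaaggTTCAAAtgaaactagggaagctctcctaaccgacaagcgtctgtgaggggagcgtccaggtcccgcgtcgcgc
Cenpa: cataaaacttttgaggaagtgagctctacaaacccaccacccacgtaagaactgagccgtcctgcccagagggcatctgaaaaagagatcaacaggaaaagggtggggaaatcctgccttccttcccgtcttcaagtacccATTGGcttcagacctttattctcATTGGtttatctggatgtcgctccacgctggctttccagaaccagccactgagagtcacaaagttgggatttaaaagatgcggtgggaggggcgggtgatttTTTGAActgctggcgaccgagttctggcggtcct

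The libraries gave 3005 coculture cells with 29089241 UMIs and 1817 cells without coculture with 27784963 UMIs, out of 3134 and 2180 barcodes, once those under 500 genes or over 10% mitochondrial UMIs were dropped. The median cell had 6031 UMIs in the coculture and 7016 without it, 2 kept barcodes occurred in both libraries, and the mitochondrial limit was passed by 90 coculture barcodes and 338 barcodes without coculture. Cell types were gated by marker panels that hold none of the 50 genes, and are called X-like because the files give no annotation. Of the coculture cells, 793 were B-lineage-like, 420 eosinophil-like, 397 basophil- or mast-cell-like, 302 neutrophil-like, 226 mature-dendritic-cell-like, 131 granulocyte-monocyte-progenitor-like (GMP-like), 109 megakaryocyte-like and 65 macrophage- or monocyte-like. Without coculture, 814 were neutrophil-like, 644 macrophage- or monocyte-like and 13 GMP-like. In each type with at least 30 cells in a library, at least 6 of its panel's markers stood at 20 CPM (UMIs scaled to a total of 1000000) or more. The lowest number was that of dendritic-cell-like cells, 6 of 10 markers in each library. Their Xcr1 and Clec9a had 0 UMIs in the coculture, and Flt3 had 0 without it. The 13 GMP-like cells without coculture were not checked in this way. Itgam, which encodes the sorted CD11b, stood at 522 CPM in coculture neutrophil-like cells but at 2.55 in coculture B-lineage-like, 5.26 in T- or NK-cell-like, 6.83 in mature-dendritic-cell-like, 13.7 in megakaryocyte-like and 31.6 in GMP-like cells. Ly6c2, a gene of the sorted Ly6C, stood at 0.83 CPM in megakaryocyte-like and 225 CPM in GMP-like cells. Cells that matched more than 1 panel (346 in the coculture, 231 without) were kept in totals and left out of types.

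Replication and mitosis genes took a larger share of the transcripts in the coculture library. Together the 50 genes had 123918 UMIs in the coculture and 43564 without it, which is 4260 (4236 to 4284) and 1568 (1553 to 1583) CPM, 2.72-fold higher in the coculture. Among the 49 genes with at least 10 CPM in either library, 38 were higher in the coculture by 2-fold or more and 0 were lower by as much, against 12.7% higher and 11.7% lower of all 8668 genes at that level. The median log2 ratio was 1.34 over the 49 genes and 0.03 over all genes. Exo1, an exonuclease of DNA repair, stayed below the minimum with 8.25 CPM in the coculture and 3.24 CPM without it. The mitosis genes were further apart, at 3219 CPM in the coculture and 1082 CPM without it (log2 ratio 1.57), than the replication genes, at 1041 and 486 CPM (log2 ratio 1.10). Under other library scalings every log2 ratio shifts down by 0.14 (TMM) or 0.12 (median of ratios). All 49 genes then stay above 0, where 51.6% of all genes lie before the shift. At least 2-fold higher stay 31 of them, against 10.7% (TMM) and 10.9% (median of ratios) of all genes. In such sums, more dividing cells and more transcript per dividing cell cannot be told apart, which the cell-level counts below bear on.

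**Figure D1:**
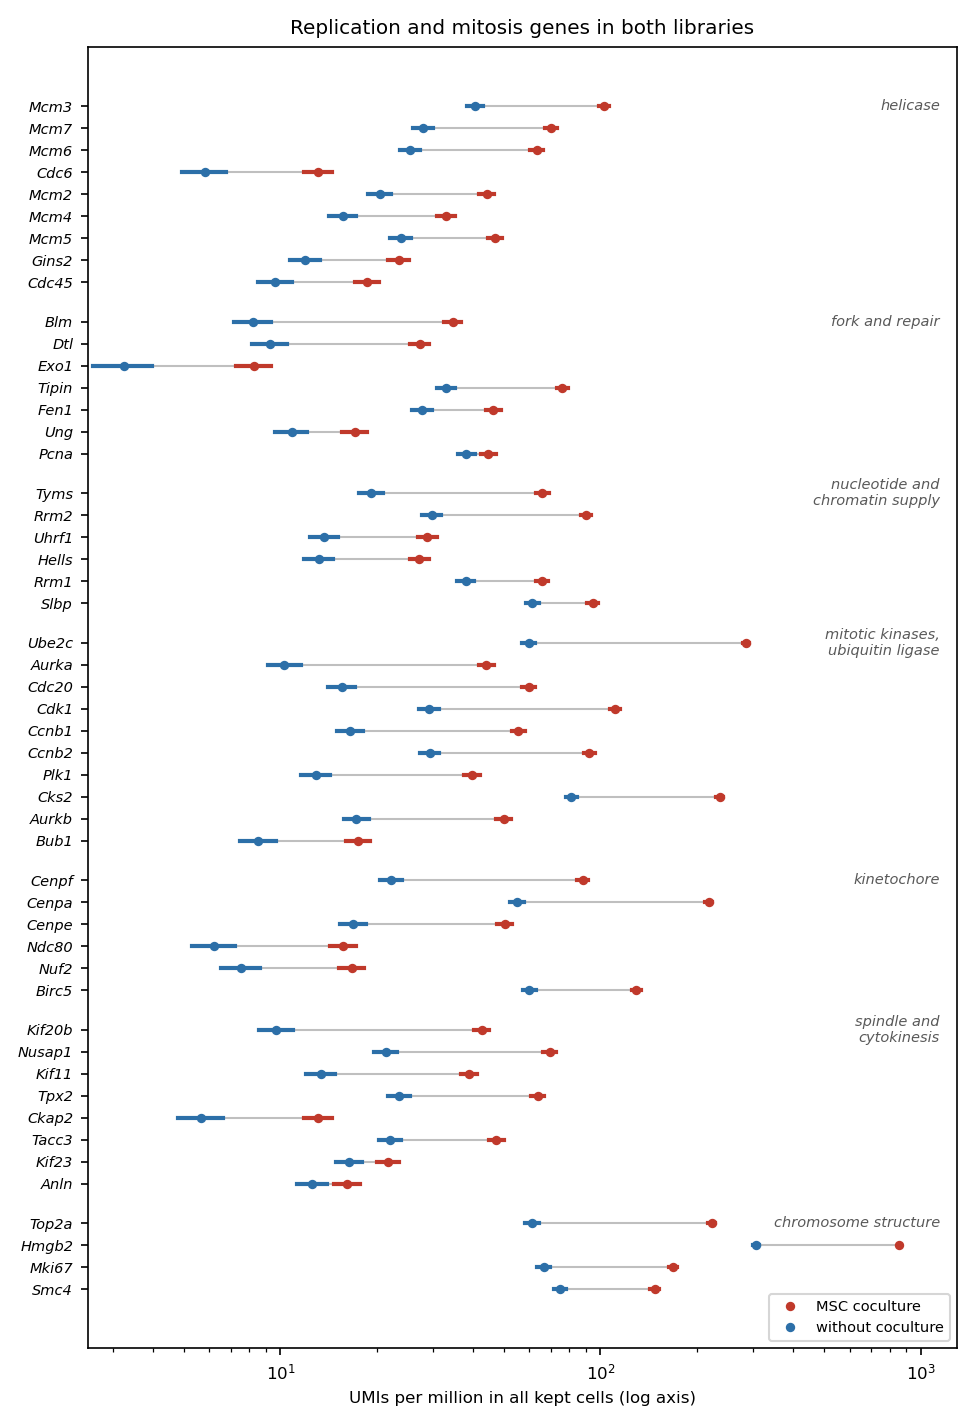
CPM of each gene over all kept cells (log axis), grouped by role, with a point for the MSC coculture and a point for the library without coculture and bars for the 95% counting intervals. All 50 genes lie further right in the coculture, from Pcna with nearly equal points (44.6 and 38.1) to Ube2c with the widest gap (284 and 59.7).

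Of the 9 helicase genes, 6 were at least 2-fold higher in the coculture, with log2 ratios between 0.95 and 1.34 and a summed level of 415 CPM in the coculture and 181 CPM without it. Mcm3 (chr1:20802968-20820312), a subunit of the MCM ring, had 2986 UMIs in the coculture and 1128 without it, or 103 and 40.6 CPM (log2 1.34, 1.24 to 1.44). Mcm7 stood at 70.1 CPM in the coculture and 27.9 CPM without it (log2 1.33). Cdc45, which joins MCM and GINS in the active helicase, had the lowest ratio of the group, with 18.7 and 9.65 CPM (log2 0.95, 0.74 to 1.17). The helicase genes thus moved within a narrow range, whereas the fork and repair genes did not.

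Among the 6 measured fork and repair genes the log2 ratios ran from 0.23 to 2.08, and 3 were at least 2-fold higher. Pcna (chr2:132249162-132253314), the sliding clamp of the polymerases, had 1297 UMIs in the coculture and 1059 without it, or 44.6 and 38.1 CPM (log2 0.23, 0.11 to 0.34), the smallest ratio of the 49 genes. Blm, the Bloom syndrome helicase, had the largest of the replication genes, with 34.6 and 8.21 CPM (log2 2.08, 1.87 to 2.29). Tipin, a fork protection factor, stood at 76.0 CPM in the coculture and 32.9 CPM without it (log2 1.21), and Fen1, the flap endonuclease, at 46.3 and 27.7 CPM (log2 0.74).

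The 6 genes of nucleotide and chromatin supply summed to 372 CPM in the coculture and 175 CPM without it, and 4 of them were at least 2-fold higher. Tyms, thymidylate synthase, stood at 65.8 CPM in the coculture and 19.2 CPM without it (log2 1.78, 1.64 to 1.92). Rrm2, the regulated subunit of ribonucleotide reductase, stood at 90.1 and 29.7 CPM (log2 1.60). Slbp, which binds the stem-loop of histone mRNA, was closer, at 94.5 and 61.2 CPM (log2 0.63, 0.54 to 0.71).

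All 10 mitotic kinase and ubiquitin ligase genes were at least 2-fold higher in the coculture, with a median log2 ratio of 1.70. Ube2c (chr2:164769898-164778822), the ubiquitin-conjugating enzyme of the anaphase-promoting complex, had 8267 UMIs in the coculture and 1658 without it, or 284 and 59.7 CPM (log2 2.25, 2.18 to 2.33), the largest ratio of the 49 genes. Cks2, a small partner of CDK1, stood at 236 CPM in the coculture and 81.1 CPM without it (log2 1.54). Bub1, a spindle checkpoint kinase, had the lowest ratio of the 10, at 17.5 and 8.53 CPM (log2 1.04, 0.81 to 1.27).

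All 6 kinetochore genes were also at least 2-fold higher, between a log2 ratio of 1.11 and 1.99. Cenpf, a large kinetochore protein, stood at 87.9 CPM in the coculture and 22.1 CPM without it (log2 1.99), Cenpa at 218 and 55.0 CPM (log2 1.98), and Birc5, survivin of the chromosomal passenger complex, at 130 and 59.96 CPM (log2 1.11, 1.03 to 1.20). Of the 8 spindle and cytokinesis genes, 6 were at least 2-fold higher. Kif20b, a kinesin of late mitosis, led them with 42.6 CPM in the coculture and 9.72 CPM without it (log2 2.13). Nusap1, a spindle-associated protein, stood at 69.3 and 21.3 CPM (log2 1.70), and Tpx2, an activator of Aurora A, at 63.7 and 23.5 CPM (log2 1.44). The 2 genes below 2-fold both act in the cleavage of the cell body. Anln (anillin) stood at 16.2 CPM in the coculture and 12.6 CPM without it (log2 0.36, 0.16 to 0.57), and Kif23 at 21.7 and 16.4 CPM (log2 0.41, 0.23 to 0.58).

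The 4 chromosome structure genes summed to 1398 CPM in the coculture and 509 CPM without it. Hmgb2, a chromatin protein that bends DNA, had 25004 UMIs in the coculture and 8523 without it, or 860 and 307 CPM (log2 1.49, 1.45 to 1.52). Top2a, which untangles the copied DNA, stood at 223 and 61.1 CPM (log2 1.86), and Mki67, the Ki-67 antigen of dividing cells, at 169 and 66.5 CPM (log2 1.34). Smc4, a condensin subunit, stood at 148 and 74.9 CPM (log2 0.98, 0.90 to 1.05).

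Beyond the 50 genes, 219 others of the same pathways were counted by the same 2-fold rule, beside 12.7% higher and 11.7% lower of all genes. Kinesin, spindle and cytokinesis genes were the most often higher in the coculture, 22 of 30 measured (median log2 1.40). Of the other mitotic lists, 11 of 21 spindle checkpoint and kinetochore genes (1.01) and 11 of 24 condensin, cohesin and chromosome genes (0.89) were higher, and 0 were lower by 2-fold in any of the 3 lists. The highest and lowest of these were Sapcd2 (3.07) and Hmmr (2.15) against Tuba1c (-0.21) and Tuba1b (-0.08), Cenpp (2.13) and Spc24 (2.09) against Mis12 (-0.30) and Mad1l1 (-0.30), and Hmgb3 (2.28) and Lmnb1 (1.98) against Pttg1 (-0.27) and Ncapg2 (-0.10), all as log2 ratios. Of the polymerase and fork genes 15 of 28 were higher (median 1.16), with Lig1, the DNA ligase that joins Okazaki fragments, at 1.79 and Pold2 at 1.51, while Prim2 (0.11) and Pola2 (0.12) of the primase complex were near 0. Origin licensing and firing had 3 of 11 higher (median 0.70), from Orc6 (1.75) and Mcm10 (1.38) down to Dbf4 (0.38) and Orc4 (0.19).

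Nucleotide supply went both ways, with 7 of 14 genes at least 2-fold higher and 1 lower in the coculture (median log2 0.96). Dut, which clears dUTP, stood at 228 CPM in the coculture and 45.0 CPM without it (log2 2.34), Shmt1 had a log2 ratio of 1.79 and Gart of 0.09. Dck, the kinase that salvages deoxycytidine, was lower, at 17.4 and 56.5 CPM (log2 -1.70). Replication-dependent histone genes had 6 of 11 higher and 2 lower (median 1.02), from Hist1h2ae (84.9 and 9.21 CPM, log2 3.20) and Hist2h2ac (3.01) to Hist1h2bc (33.8 and 122 CPM, log2 -1.85) and Hist1h1c (101.1 and 232 CPM, log2 -1.20), and near-identical copies leave the values of single histone genes uncertain.

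Among the regulators, 5 of 16 genes of the E2F, MYB, FOXM1 and RB families were at least 2-fold higher and 1 lower (median log2 0.56). Myb, a transcription factor of immature blood cells, stood at 67.6 CPM in the coculture and 4.03 CPM without it (log2 4.07). Mycn had 393 UMIs in the coculture and 0 without it, which makes it at least 125-fold higher when 3 UMIs are taken as the floor of the library without coculture. E2f2, an activator E2F, was lower, at 22.8 CPM in the coculture and 47.2 CPM without it (log2 -1.05), and Lin54 had a log2 ratio of -0.25. Cyclins and their kinases had 4 of 13 higher (median 0.59), led by Wee1 (2.71) and Ccnf (1.32), while Ccnd1 (-0.54) and Ccnd3 (-0.27) of the G1 phase were the lowest. The list of CDK inhibitors and exit genes had 0 of 11 higher and 1 lower (median 0.05), near the 12.7% and 11.7% of all genes, from Cdkn2d (0.86) and Cdkn2c (0.66) to Ccng1 (47.5 CPM in the coculture and 105 CPM without it, log2 -1.14) and Mxd1 (-0.69).

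In the coculture library most UMIs of the 50 genes came from 4 cell types. Its eosinophil-like, basophil- or mast-cell-like, GMP-like and megakaryocyte-like cells, 1057 of 3005 cells, held 75.2% of the UMIs of the 50 genes and 53.6% of all UMIs, and the library without coculture held 13 such cells. Without those 1057 cells, an alternative chosen after the data were seen, the coculture stood at 2272 CPM against 1568 CPM without coculture, 1.45-fold higher (1.43 to 1.47). The 13 GMP-like cells stayed in the library without coculture, with 7.05% of its UMIs of the 50 genes and 1.59% of all its UMIs. The 4 types have the highest sums of the types described, so a smaller ratio without them follows from the choice. Of 44 genes then measured, 3 were at least 2-fold higher (Blm, Cenpa and Cenpf), against 9.73% of all genes. A log2 ratio above 0 remained for 41, with a median of 0.48 over the 44 genes and -0.01 over all genes. Pcna then stood lower in the coculture, at 30.4 CPM and 38.1 CPM without it, as did Anln, at 8.22 and 12.6 CPM, and Kif23, at 14.96 and 16.4 CPM.

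To compare cells of unequal depth, each cell with at least 2000 UMIs was thinned to 2000, which kept 2740 coculture cells and 1677 cells without coculture and left out 265 and 140 shallower ones. At that depth 26.4% of coculture cells (24.8 to 28.1) and 8.71% of cells without coculture (7.40 to 10.2) held transcripts of at least 5 of the 50 genes, and 3.28% and 1.01% held 15 or more. No gene of the 50 was seen in 17.1% of coculture cells and 27.1% of cells without coculture. At full depth the shares with at least 5 were closer, 43.6% and 37.4%. Cells with at least 5 genes at equal depth had been sequenced more deeply than the rest, with medians of 18770 against 5120.5 UMIs in the coculture and 28419.5 against 7250 UMIs without it. Counted at full depth, they held 87.8% of the coculture's UMIs of the 50 genes and 47.3% of all its UMIs. Without coculture they held 60.8% and 17.8%. These cells were picked by the same 50 genes, so a high share of the genes' UMIs follows in part from the picking.

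Those cells belonged to different types in the 2 libraries. Of the 724 in the coculture, 98 were GMP-like, 268 eosinophil-like, 70 megakaryocyte-like, 113 basophil- or mast-cell-like, 50 B-lineage-like and 77 matched more than 1 panel. Of the 146 without coculture, 91 were macrophage- or monocyte-like, 19 neutrophil-like, 12 GMP-like and 18 matched more than 1 panel.

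**Figure D2:**
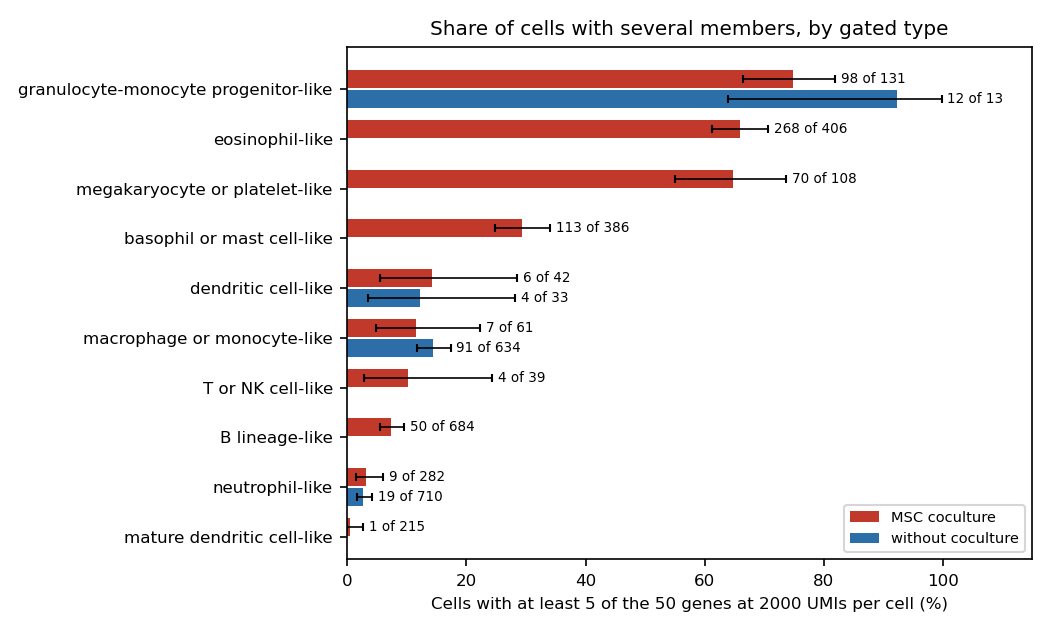
Share of cells, in percent, with transcripts of at least 5 of the 50 genes after thinning to 2000 UMIs per cell, by gated type and library, with exact binomial 95% intervals and the cell numbers beside them. In the coculture 3 types reach 64.8% to 74.8%, basophil- or mast-cell-like cells 29.3%, and every other type shown stays at 14.3% or below.

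Within the coculture library, GMP-like cells had the highest share with at least 5 genes, 74.8% (66.5 to 82.0, 98 of 131 cells), next to 66.0% of eosinophil-like cells (61.2 to 70.6, 268 of 406) and 64.8% of megakaryocyte-like cells (55.0 to 73.8, 70 of 108). The intervals of these 3 overlap, so their order is not set by these counts. Basophil- or mast-cell-like cells followed at 29.3% (24.8 to 34.1), below all 3 and above every later type except dendritic-cell-like cells, whose interval overlaps theirs. Dendritic-cell-like cells stood at 14.3% (5.43 to 28.5, 6 of 42) and macrophage- or monocyte-like cells at 11.5% (4.74 to 22.2). T- or NK-cell-like cells stood at 10.3% (2.87 to 24.2, 4 of 39) and B-lineage-like cells at 7.31% (5.47 to 9.52). Of the 95 T- or NK-cell-like cells, 56 (58.9%) were too shallow and were left out of this share. Neutrophil-like cells had 3.19% (1.47 to 5.97) and mature-dendritic-cell-like cells 0.465% (0.012 to 2.56, 1 of 215), the lowest of all. Mature-dendritic-cell-like cells serve as the low point of comparison here, and their median of 6397.5 UMIs was close to the 6362 of basophil- or mast-cell-like cells. Free RNA can reach all droplets, and its part in these counts was not tested. Without coculture, 12 of 13 GMP-like cells, 14.4% of macrophage- or monocyte-like (11.7 to 17.3, 91 of 634), 4 of 33 dendritic-cell-like and 2.68% of neutrophil-like cells (1.62 to 4.15, 19 of 710) held at least 5.

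Unthinned shares were higher. In mature-dendritic-cell-like cells 31.9% passed 5 genes at full depth, and in macrophage- or monocyte-like cells without coculture 73.1%, whose median was 21474 UMIs. At full depth GMP-like, eosinophil-like and megakaryocyte-like cells of the coculture reached 96.9%, 87.9% and 89.9%, with medians of 19867, 17820 and 21368 UMIs.

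Summed over the 50 genes, the highest levels were likewise in these types. In the coculture the sum was 6648 CPM in megakaryocyte-like, 6143 in GMP-like, 6137 in eosinophil-like and 5021 in basophil- or mast-cell-like cells. It was 3225 CPM in dendritic-cell-like, 2180 in B-lineage-like, 1884 in macrophage- or monocyte-like, 1041 in T- or NK-cell-like, 1037 in neutrophil-like and 788 CPM in mature-dendritic-cell-like cells. Without coculture it was 6934 CPM in the 13 GMP-like cells, 1551 in macrophage- or monocyte-like, 1398 in dendritic-cell-like and 1231 CPM in neutrophil-like cells.

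**Figure D3:**
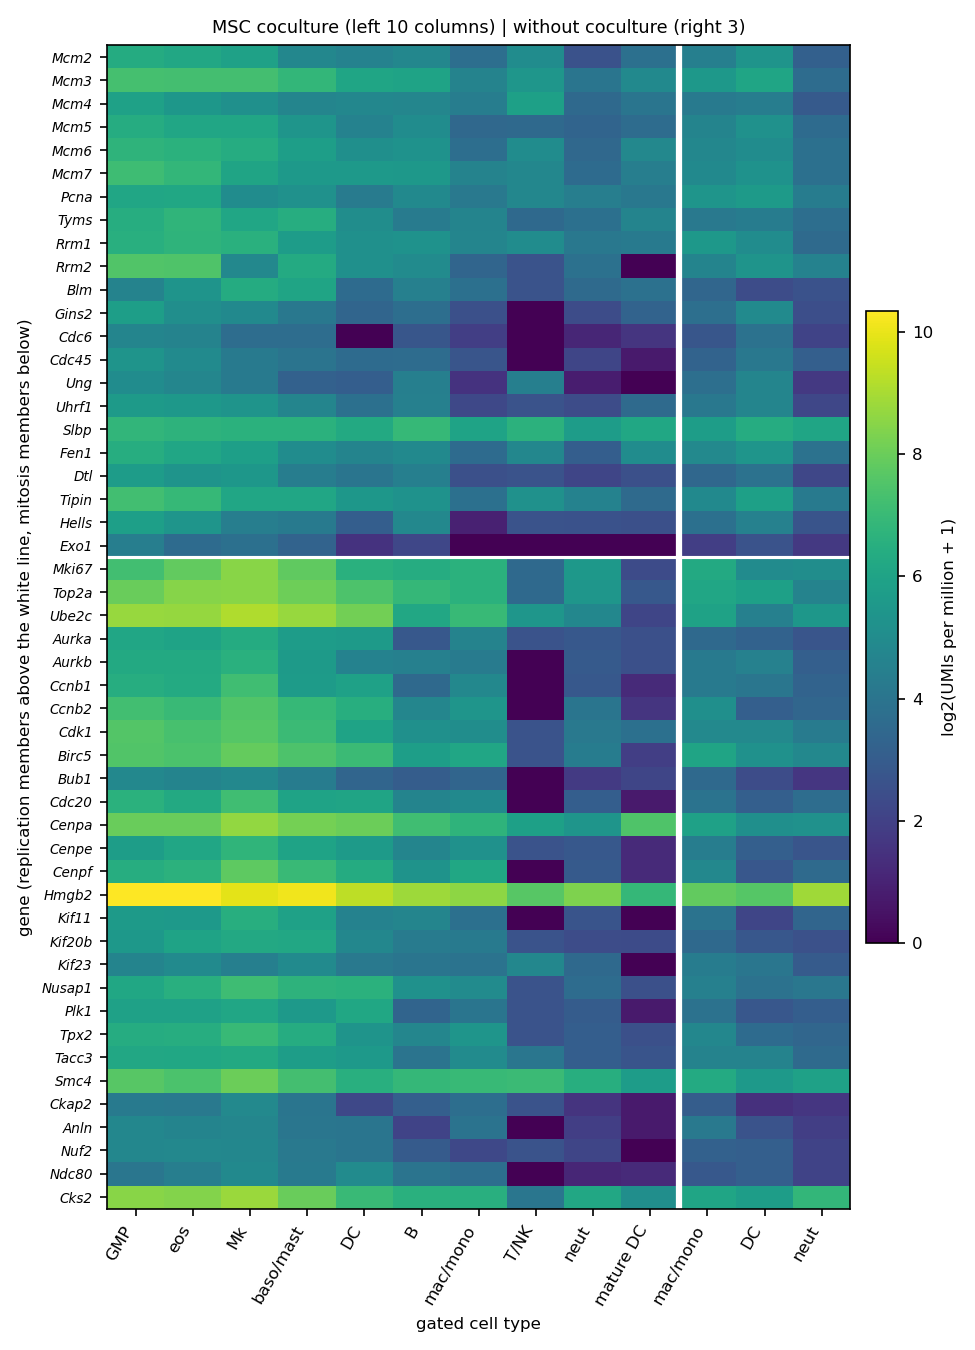
Level of each gene as log2(CPM + 1) in each gated type, with replication genes above the white line and mitosis genes below it, and 10 coculture columns left of 3 columns without coculture (abbreviations: eos, eosinophil; Mk, megakaryocyte or platelet; baso/mast, basophil or mast cell; DC, dendritic cell; mac/mono, macrophage or monocyte; neut, neutrophil; all are X-like gates). The bright block is formed by the GMP, eosinophil, megakaryocyte and basophil columns of the coculture, with Slbp and Hmgb2 bright in nearly every column.

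The replication and the mitosis genes peaked in different types of the coculture. Of the 22 replication genes 17 were highest in GMP-like cells, 3 in eosinophil-like, 1 in megakaryocyte-like (Blm) and 1 in B-lineage-like cells (Slbp). Of the 28 mitosis genes 22 were highest in megakaryocyte-like cells, 2 in eosinophil-like, 2 in dendritic-cell-like (Plk1 and Ndc80), 1 in GMP-like and 1 in basophil- or mast-cell-like cells (Kif23). Among all 8064 genes at the minimum in the coculture, 14.7% were highest in GMP-like, 17.4% in megakaryocyte-like and 6.09% in eosinophil-like cells. For 26 of the 49 genes at the minimum, GMP-like, eosinophil-like and megakaryocyte-like cells all stood above every other type, which held for 11% of all genes.

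The balance of both sets differed between types. Mitosis genes summed to 5.23 UMIs per UMI of replication genes in macrophage- or monocyte-like and 4.71 in dendritic-cell-like cells of the coculture, both with far lower sums, and to 3.31 in neutrophil-like cells. Among the 4 types with the highest sums they came to 4.62 UMIs per UMI of replication genes in megakaryocyte-like cells (5466 and 1182 CPM), to 4.30 in basophil- or mast-cell-like (4074 and 947 CPM), to 2.86 in eosinophil-like (4546 and 1591 CPM) and to 2.52 in GMP-like cells (4397 and 1746 CPM). At least 3 replication and at least 3 mitosis genes were seen together in 39.7% of GMP-like and 21.3% of megakaryocyte-like cells at equal depth, while at least 3 mitosis genes without 3 replication genes were seen in 30.5% of GMP-like and 41.7% of megakaryocyte-like cells. In B-lineage-like cells the ratio was 2.21 (1502 and 679 CPM), and in mature-dendritic-cell-like cells it was 1.35 (453 and 335 CPM). These sums can hide what each gene does, so single genes follow.

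**Figure D4:**
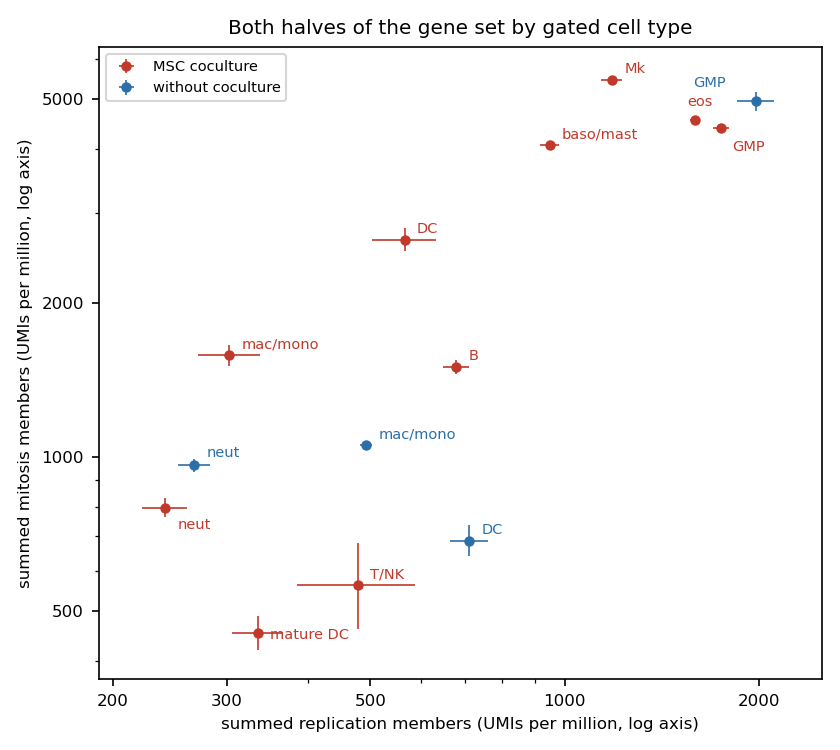
Summed replication genes (x axis) and summed mitosis genes (y axis), both in CPM on log axes, 1 point per gated type and library. Megakaryocyte-like cells lie highest (5466 CPM of mitosis genes) and GMP-like cells furthest right among coculture types (1746 CPM of replication genes).

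Mcm3 stood highest in 4 types of the coculture, at 157 CPM in GMP-like, 153 in eosinophil-like, 153 in megakaryocyte-like and 115.3 in basophil- or mast-cell-like cells, with lower levels in dendritic-cell-like (66.4), B-lineage-like (63.1), T- or NK-cell-like (42.1), mature-dendritic-cell-like (29.4), macrophage- or monocyte-like (23.6) and neutrophil-like cells (15.3). Without coculture it stood at 65.8 CPM in dendritic-cell-like, 45.2 in macrophage- or monocyte-like and 11.6 in neutrophil-like cells. Mcm5, another ring subunit, had the same top type, with 83.1 CPM in GMP-like, 69.0 in megakaryocyte-like and 68.2 in eosinophil-like cells, and 8.996 CPM in neutrophil-like cells. Both helicase genes thus had their highest value in GMP-like and their lowest in neutrophil-like cells of the coculture. For Mcm3 the lead was small, 157 CPM against 153 in eosinophil-like and 153 in megakaryocyte-like cells, and does not set an order among these types.

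Pcna split the 3 top types, at 69.7 CPM in eosinophil-like and 69.3 in GMP-like cells but 31.6 in megakaryocyte-like cells, below the 36.9 of basophil- or mast-cell-like cells. Rrm2 showed a wider gap of the same kind, with 186 CPM in GMP-like, 180 in eosinophil-like and 27.4 in megakaryocyte-like cells. Mki67 was arranged in the other order, at 357 CPM in megakaryocyte-like, 232 in eosinophil-like, 223 in basophil- or mast-cell-like and 146 in GMP-like cells. It stood at 4.10 CPM in mature-dendritic-cell-like cells and 10.5 in T- or NK-cell-like cells, its lowest levels in the coculture.

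Ube2c reached 547 CPM in megakaryocyte-like, 426 in GMP-like, 422 in basophil- or mast-cell-like and 411 in eosinophil-like cells, then 281 in dendritic-cell-like, 124 in macrophage- or monocyte-like, 71.9 in B-lineage-like and 26.6 in neutrophil-like cells. Top2a ranged from 359 CPM in megakaryocyte-like and 350 in eosinophil-like cells to 6.10 in mature-dendritic-cell-like cells. Hmgb2 was present throughout, at 1296 CPM in eosinophil-like, 1261 in GMP-like, 1102 in basophil- or mast-cell-like and 978 in megakaryocyte-like cells, but also at 324 CPM in coculture neutrophil-like and 470 CPM in neutrophil-like cells without coculture. Slbp ranged less widely, from 51.6 CPM in neutrophil-like to 120 in B-lineage-like cells of the coculture, and without coculture from 53.3 in macrophage- or monocyte-like to 84.0 in dendritic-cell-like cells.

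How far each gene kept company with the rest of the set was described by setting its level in cells with at least 5 of the other 49 genes against its level in cells with fewer, at 2000 UMIs per cell. Among the most confined in the coculture was Plk1, the Polo kinase, with 102 UMIs in 724 cells with at least 5 others and 3 UMIs in 2016 cells with fewer, 94.7-fold higher by CPM, and 53.2-fold higher without coculture. Nuf2, of the NDC80 complex, had 41 and 0 UMIs. Cdc45, with 58 and 2 UMIs, Ccnb1 (cyclin B1), Birc5 and Top2a were 80.8-fold, 78.8-fold, 54.5-fold and 46.2-fold higher in coculture cells with at least 5 others. Without coculture Kif11, a spindle kinesin, with 33 and 3 UMIs, had the largest ratio of the genes seen in both kinds of cell (117-fold), and Ccnb1, Nuf2 and Ndc80 had 0 UMIs in cells with fewer. In the coculture Aurka, Kif11 and Nusap1 were 61.4-fold, 57.2-fold and 53.3-fold higher. In the library for which each was named, a small share of the UMIs of these genes came from cells with fewer others. This share reached 5.76% in the coculture (Top2a, 671 and 41 UMIs) and 8.33% without it (Kif11). For several other members the share was far larger. In the other library some were less confined. Without coculture Cdc45 had 9 UMIs in cells with at least 5 others and 8 in cells with fewer (11.9-fold), and Top2a had 76 and 21. In the coculture Ndc80 had 40 and 14.

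Slbp was 1.74-fold higher in coculture cells with at least 5 others, the smallest ratio of the 50. Blm (2.88-fold), Ung (3.35-fold), which removes uracil from DNA, Smc4 (3.38-fold) and Mcm4 (3.63-fold) came next. Fen1, Mcm6, Tipin, Cenpa, Cks2, Mcm2 and Pcna followed, between 4.17-fold and 5.37-fold. Without coculture the least confined were Slbp (1.75-fold), Cks2 (2.52-fold), Ung (2.62-fold), Mcm4 (3.09-fold) and Pcna (3.22-fold), and 86.2% of Slbp, 81.1% of Cks2, 77.1% of Pcna and 73.6% of Hmgb2 UMIs came from cells with fewer than 5 others. In the coculture, where more cells had at least 5 others, these shares were 62.4% for Slbp, 36.5% for Cks2, 34.3% for Pcna and 30.2% for Hmgb2. Cenpa also stood at 178 CPM in coculture mature-dendritic-cell-like cells, in which Top2a was at 6.10 CPM.

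Inside each type, cells with at least 5 of the genes were set against those with fewer for the type's own markers, which are not among the 50. Of the 10 eosinophil markers, 7 were lower in the 268 eosinophil-like cells with at least 5 than in the 138 with fewer, with intervals below 0, and the other 3 had at most 4 UMIs in all. Ccr3, the eotaxin receptor of mature eosinophils, stood at 18.7 and 167 CPM at equal depth (log2 -3.16, -4.31 to -2.15), Ear2, an eosinophil ribonuclease, at 170 and 384 (-1.18), and Prg2, the granule's major basic protein, at 64358 and 103489 (-0.69, -0.71 to -0.66). The list of CDK inhibitors and exit genes summed to 634 CPM in cells with at least 5 and 953 in cells with fewer (log2 -0.59).

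In GMP-like cells the 98 with at least 5 had more Ms4a3, a gene of committed granulocyte-monocyte progenitors, with 1133 CPM against 667 in the 33 with fewer (log2 0.76, 0.29 to 1.27). Of the 12 markers of the panel, Elane, Ms4a3 and Nkg7 had intervals above 0 and Ctsg, Cd34 and Sox4 below it, and the other 6 spanned 0 or had no UMI. Elane, neutrophil elastase, stood at 9077 and 8045 CPM (0.17, 0.03 to 0.32), and Ctsg, cathepsin G, at 2398 and 2924 CPM (-0.29, -0.53 to -0.04). Cd34 and Sox4 rest on few counts, 8 and 9 UMIs for Cd34 (-1.74, -3.31 to -0.19) and 10 and 12 UMIs for Sox4 (-1.83, -3.20 to -0.50). In megakaryocyte-like cells Pf4, platelet factor 4, was alike at 16314 CPM in the 70 cells with at least 5 and 15789 in the 38 with fewer (0.05, -0.05 to 0.15), whereas Ppbp, another platelet granule chemokine, stood at 421 and 816 (-0.95).

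For megakaryocyte-like cells and the types that follow, only genes picked after their values were seen are given. The other markers of their panels (12 megakaryocyte, 11 basophil or mast cell, 16 B lineage, 26 macrophage or monocyte, 20 neutrophil) are not described. Of basophil- or mast-cell-like cells, the 113 with at least 5 had 447 CPM of the mast-cell tryptase Tpsb2 against 1101 in the 273 with fewer (log2 -1.30, -1.62 to -0.99), and 2783 against 1894 of the carboxypeptidase Cpa3 (0.56). The 50 B-lineage-like cells with at least 5 had 400 CPM of Ighd, the IgD chain of mature B cells, against 868 in the 634 with fewer (-1.12). Without coculture, the 91 macrophage- or monocyte-like cells with at least 5 were set against the 543 with fewer, with Lyz2 at 29187 and 31836 CPM (-0.13), Wfdc17 at 2813 and 2094 (0.43) and Fn1 at 258 and 469 (-0.86). Of neutrophil-like cells without coculture, 19 had at least 5 and 691 had fewer. Prtn3, proteinase 3 and a marker of the GMP panel, stood in them at 526 and 28.9 CPM (4.18, 3.33 to 4.99). Camp, of the secondary granules, stood at 2421 and 586 CPM (2.05). Retnlg, a gene of mature neutrophils, stood at 132 and 1049.9 CPM (-4.62 to -1.77 on the log2 scale). Of the 19 cells, 11 were granule-rich, the neutrophil-like cells that carry genes of immature neutrophils, and 8 were not. Whether these levels hold in each kind was not tested.

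Macrophage- or monocyte-like, dendritic-cell-like and neutrophil-like cells were found in both libraries in numbers above 30, so the same gates could be set side by side. The gates held different clusters, however, when all cells were clustered without the 50 genes and the pathway lists. Of the macrophage- or monocyte-like cells, 55 of 65 in the coculture lay in a cluster led by Arg1, Cxcl3 and Nos2, while 349 and 168 of 644 without coculture lay in 2 clusters led by Wfdc17. Of dendritic-cell-like cells, 27 of 44 in the coculture lay in a cluster led by Ccl5 and Ccr7, and 28 of 34 without coculture in one led by Asgr2 and Ptx3. Of neutrophil-like cells, 270 of 302 in the coculture lay in the Arg1-led cluster, and 522 of 814 without coculture in one led by Asprv1 and S100a9. The part of these differences in the values below was not tested.

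In macrophage- or monocyte-like cells the replication genes were lower and the mitosis genes higher in the coculture. Replication genes summed to 303 CPM in the coculture and 493 CPM without it (log2 -0.70, -0.87 to -0.54), with 11 of 19 measured genes lower by 2-fold or more and 0 higher by as much, against 7.25% higher and 12.9% lower of all genes and a median of -0.20 over all genes. Pcna stood at 17.0 CPM in the coculture and 40.5 CPM without it (-1.26, -2.02 to -0.59), Mcm5 at 10.4 and 24.6 CPM (-1.25) and Mcm3 at 23.6 and 45.2 CPM (-0.94). Mitosis genes summed to 1582 and 1058 CPM (0.58, 0.51 to 0.65), with 4 of 27 at least 2-fold higher and 0 lower. These 4 were Cenpf, at 70.7 CPM in the coculture and 27.0 CPM without it (1.39), Aurka, the Aurora A kinase (1.14), Ube2c (1.01) and Cdc20, an activator of the anaphase-promoting complex (1.01). At equal depth at least 3 replication genes were seen in 1 of 61 coculture cells (1.64%, 0.0415 to 8.80) and in 50 of 634 cells without coculture (7.89%, 5.91 to 10.3), while at least 3 mitosis genes were seen in 9 of 61 (14.8%) and 100 of 634 (15.8%). As a mean over cells the log2 ratios were -0.79 for replication and 0.67 for mitosis genes. The 7 coculture cells with at least 5 genes held 47.4% of the gate's UMIs of the 50 genes, and the 91 without coculture 59.4%. Of all UMIs of the gate they held 14.1% and 19.7%.

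Dendritic-cell-like cells were the fewest, 44 in the coculture and 34 without it. Their mitosis genes summed to 2660 CPM in the coculture and 686 CPM without it (log2 1.95, 1.83 to 2.08), with 22 of 26 measured genes at least 2-fold higher and 0 lower, against 16.3% higher and 10.8% lower of all genes. Ube2c stood at 281 CPM in the coculture and 21.6 CPM without it (3.70, 3.08 to 4.37). Replication genes summed to 565 CPM in the coculture and 711 CPM without it (-0.33, -0.53 to -0.14), with 5 of 21 lower by 2-fold or more and 1 higher. Cdc6, the loader of the MCM helicase, had 0 UMIs in the coculture and 16 without it. These sums rest on few cells, since 6 coculture cells with at least 5 genes held 78.6% of the gate's UMIs of the 50 genes and 4 cells held 70.5% without coculture. Of all UMIs of the gate they held 25.2% and 18.5%. In the cells with fewer than 5 the replication ratio turned to 0.65, and that of the mitosis genes was 1.17.

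Neutrophil-like cells gave no stable direction. The 50 genes summed to 1037 CPM in the coculture and 1231 CPM without it (log2 -0.25, -0.31 to -0.18), but the mean over cells gave 0.17, and without Hmgb2, Ube2c, Cks2 and Top2a the ratio was -0.019. Of 28 genes measured, 1 was at least 2-fold higher (Blm, 1.11) and 0 were lower, against 9.73% higher and 6.31% lower of all genes. Hmgb2 stood at 324 CPM in the coculture and 470 CPM without it (-0.53), and Top2a at 41.9 and 23.9 CPM (0.81). The granule-rich neutrophil-like cells, which carry genes of immature neutrophils, stood at 1287 CPM in the coculture (95 cells) and 2005 CPM without it (188 cells), a log2 ratio of -0.64. There 5 of 90 coculture cells with at least 5 genes held 59.0% of the UMIs of the 50 genes, and 11 of 182 held 70.0% without coculture. Of all UMIs of the granule-rich cells they held 11.2% and 13.6%. The other neutrophil-like cells stood at 854 CPM (207 cells) and 673 CPM (626 cells), a log2 ratio of 0.34. Among the granule-rich cells 16 of 39 measured genes were at least 2-fold lower and 2 higher in the coculture, against 5.84% lower and 17.7% higher of all genes. In the other neutrophil-like cells 9 of 17 were at least 2-fold higher and 0 lower, against 10.6% higher and 10.4% lower of all genes. There 4 of 192 coculture cells with at least 5 genes held 26.7% of the UMIs of the 50 genes. Without coculture 8 of 528 held 3.78%. Of all UMIs of these other cells they held 4.08% and 1.03%. A gene could be measured through 1 library alone, so these few cells bear on the count.

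**Figure D5:**
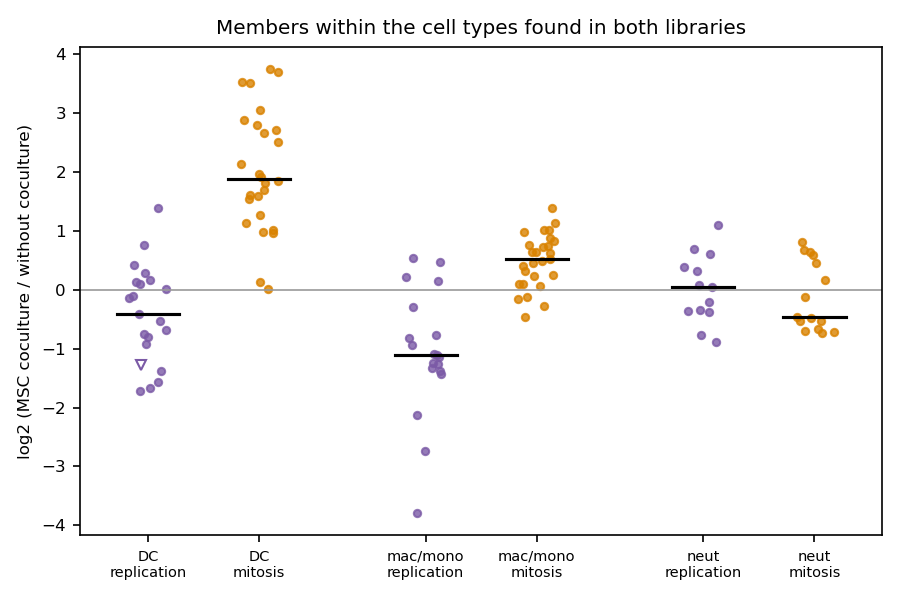
Log2 ratio of the coculture over the library without coculture for each measured gene within the macrophage- or monocyte-like, dendritic-cell-like and neutrophil-like gates, replication and mitosis genes apart. Each point is a gene, bars are medians, and the open triangle is Cdc6 in dendritic-cell-like cells, which had 0 UMIs in the coculture and is drawn at the bound set by 3 UMIs. Mitosis genes lie mostly above 0 and replication genes mostly below it in macrophage- or monocyte-like and dendritic-cell-like cells. In neutrophil-like cells the medians are 0.05 for replication and -0.47 for mitosis genes, by sums that turn round as means over cells.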

How the data were processed

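Each of 2 libraries (1 per group, 10x 3′ chemistry) was deposited by the authors as raw UMI counts per gene and barcode, not normalized. The submitters' processing notes name Cell Ranger, bcl2fastq and mm10, and version 3.1.0 stands in the file headers. How barcodes were called as cells is not given in the sources used here. The labels do not say how many animals each library holds.

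From the deposited counts, barcodes under 500 genes or over 10% mitochondrial UMIs were dropped, UMIs were summed per library or gated type, and CPM is the sum scaled to 1000000. With 1 library per group no test was run. A gene is called at least 2-fold higher or lower by its CPM if it has 10 CPM in either library. Sums have exact Poisson intervals, ratios conditional binomial ones and shares Clopper-Pearson ones (95%, counting error only). A count of 0 was given a floor of 3 UMIs per library, 0.103 CPM in the coculture and 0.108 CPM without it.

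Each panel marker's UMIs per 10000 were limited to 20 and summed, and each panel was scaled to its 99th percentile. A cell took the top panel if its score was at least 0.25 and the next at most 0.75 of it. The markers were listed with the design and the scores and limits were settled with the data in view. Types with at least 30 cells in a library are described, as are the 13 GMP-like cells without coculture. Doublets were not called, so droplets with more than 1 cell remain, and cells matching more than 1 panel may include them. Clusters came from scanpy 1.11.5 (2000 variable genes, 30 components, resolution 0.8) without the 50 genes and pathway lists. Scaling factors came from edgeR 4.0.16 and DESeq2 1.42.0. The calls were checked on simulated counts. Gene positions are those of GRCm38.

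The 50 genes, their role groups and the pathway lists were chosen with earlier results of these data known. Named by rule were, per role group, the 2 genes with most coculture UMIs and those with the highest and lowest ratio. By cell type these were the 2 replication and 2 mitosis genes with most UMIs, plus Mki67, Top2a, Mcm5 and Pcna, and per pathway list the 2 highest and 2 lowest ratios. Other genes named, such as Rrm2 and Cenpa by cell type and the genes of the confinement and within-type comparisons, were chosen after their values were seen. Of the 30 spindle checkpoint and kinetochore genes listed, 27 were found by symbol.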

Additional observations from a re-analysis of the deposited data

Results flagged for a closer look

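The mitosis genes moved in opposite directions between the libraries in 2 pairs of gates, and neither difference was tested, since each group has 1 library. The log2 ratio of their summed CPM, coculture over without coculture, was 0.58 in macrophage- or monocyte-like and -0.28 in neutrophil-like cells, 0.855 apart. It was 1.95 in dendritic-cell-like cells, 2.23 above the neutrophil-like value. The neutrophil-like value turns to 0.15 when each cell counts equally, so the opposite directions rest on the summing of UMIs. In the coculture, 55 of 65 macrophage- or monocyte-like and 270 of 302 neutrophil-like cells lay in the same Arg1-led cluster. These 2 gates are therefore largely not separate clusters there. Of the dendritic-cell-like cells of the coculture, 27 of 44 lay in the cluster led by Ccl5 and Ccr7. At equal depth 14.8% and 15.8% of macrophage- or monocyte-like cells (coculture and without) held at least 3 mitosis genes, as did 6.74% and 4.37% of neutrophil-like cells.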

How the results depend on the processing

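Of the values recomputed under other settings, 44 stayed within the limits set, 37 moved more and 1 turned round. The limits of the data are 1 library per group, cell types rebuilt from markers, doublets not called, and depth. No paired analysis was possible because each group has 1 library, and for the same reason no replicate could be left out. The cause of a move was not tested, except that a higher minimum measures fewer genes, and thinning depth and the number of genes required set how many cells can pass. The setting without 4 cell types, which left them out of the coculture only, and the share without the deepest 5% of cells, were chosen after seeing the data.

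The genes at least 2-fold higher in the coculture, 38 of 49 measured, numbered 21 of 24 at a minimum of 50 CPM and 3 of 44 without 4 cell types. The shares of all genes were 12.7%, 11.6% and 9.73% in that order. The log2 ratio of the sum, 1.44, was 1.35 without the deepest 5% of cells, 1.20 as a mean over cells, 1.33 without the 4 genes with most UMIs and 0.54 without 4 cell types. In the next sentences GMP-like, eosinophil-like and megakaryocyte-like values of the coculture come in that order. The shares of cells with at least 5 genes were 51.9%, 45.6% and 49.5% at 1000 UMIs and 85.2%, 80.7% and 74.1% at 4000 UMIs. With at least 3 genes eosinophil-like and megakaryocyte-like cells had 78.3% and 75.0%, with at least 8 GMP-like and eosinophil-like cells had 52.7% and 47.8%, and without the 4 genes these had 65.6% and 56.4%. Coculture neutrophil-like cells had 6.25% at 4000 UMIs, 12.1% with at least 3 genes and 6.87% by clusters, and neutrophil-like cells without coculture 5.45% at 4000 UMIs, 1.39% at 1000 UMIs, 9.44% with at least 3 and 1.55% with at least 8 genes. Summed levels were 5513, 5344 and 5935 CPM as means over cells, 3844, 3734 and 4328 CPM without the 4 genes, and 5542, 5316 and 6311 CPM without the deepest 5% of cells, and GMP-like cells had 6455 CPM under a stricter gate. The neutrophil-like log2 ratio of -0.25 was -0.44 under a stricter gate, -0.019 without the 4 genes and 0.17 as a mean over cells.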
